A study of Homo sapiens with 26 samples.

Results

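The transcriptional response to palbociclib was measured in LoVo cells, a human colorectal cancer line, that carry the PIK3CA mutation H1047R. The comparison holds 4 of the 26 libraries of the series: 2 libraries of H1047R cells in 0.5 µM palbociclib and 2 of H1047R cells in DMSO, the solvent. These are all the libraries of that line that the table of 18 libraries labels with either treatment, and all genes of the table were considered. The study asks what part PIK3CA mutations play in resistance to palbociclib, which was given to make cells senescent. The H1047R and E545K mutations were introduced into wild-type LoVo cells with lentiviral vectors, and the series description names 1 clone of each mutant, 3# for H1047R and 2# for E545K, for the palbociclib experiment. Line, clone and mutation can therefore not be told apart. Wild-type LoVo cells and the E545K line, each in palbociclib and in DMSO with 2 libraries per group, are used below where responses are compared, and libraries of the 3 lines in medium conditioned by senescent cells are used as levels only. The culture medium was DMEM containing 10% FBS. According to the labels' protocols, palbociclib and DMSO were given for 72 hours, but those protocols also mention control cells collected at 48 hours without naming the libraries, so a difference in hours between palbociclib and DMSO cannot be told apart from the treatment.

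Palbociclib inhibits the kinases CDK4 and CDK6, which with the D-type cyclins phosphorylate the retinoblastoma protein RB and so release E2F factors that drive the genes of DNA replication and mitosis. Cells held in this arrest for days can become senescent, a state known for secreted cytokines and for altered nuclear proteins. Interferons and NF-kB are the main inducers of antigen presentation and chemokine genes in epithelial cells. HLA class II genes, which present peptides from outside the cell to helper T cells, are usually silent in tumour epithelium until the coactivator CIITA is made.

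The values are FPKM, fragments per kilobase of transcript scaled to library size, so the depth of the libraries is unknown. The 4 libraries summed to 464294 and 524290 FPKM in palbociclib and to 475386 and 451584 FPKM in DMSO, and 11640 to 12071 genes reached 1 FPKM in each. The markers of colorectal epithelium fitted the label, with 12 of 13 reaching 1 FPKM and sums of 12835.6 and 16817.8 FPKM in palbociclib against 8434.48 and 7410.72 FPKM in DMSO. Such sums weigh abundant members such as KRT19 (870.42 and 1131.04 against 580.22 and 429.96 FPKM). Over the 11 of these markers tested below, the median log2 change was 0.005, with 2 higher and 2 lower. Of 13 myeloid and dendritic cell markers only CD68 and LYZ reached 1 FPKM (sums 44.57 and 45.36 FPKM in palbociclib, 36.68 and 35.18 FPKM in DMSO), of 11 T and B cell markers only PTPRC (2.34 and 1.44 against 1.84 and 2.95 FPKM), and of 12 fibroblast and endothelial markers only COL1A1 and COL3A1 (6.63 and 6.97 against 9.28 and 10.08 FPKM), 3 of these 12 being listed at 0 in all 4 libraries. The replicates of the H1047R groups lay further apart than those of the other 7 groups of the table. In log2 units the residual SD was 0.234 for palbociclib and 0.166 for DMSO, against 0.0893 to 0.112 for the others. The part of this spread in the results was not tested.

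Of 11998 genes tested, 392 were higher in palbociclib (3.27%) and 190 were lower (1.58%), or 4.85% in either direction. Counts of list members in this comparison are to be read beside these shares. A gene was tested when it reached 1 FPKM in at least 2 of the 4 libraries, and was called when its limma adjusted p fell below 0.05. Some genes named below reached 1 FPKM in the palbociclib libraries only, among them IFNB1, IFNL1, HLA-DRB3, CEACAM7, KRT17 and LGALS9, and PCK1 in the DMSO libraries only. They entered the test only through the group where they are high, so their calls and separation are no support of their own. Without a library of that group they could not be tested. Changes are given on the scale of log2(FPKM + 1) as palbociclib minus DMSO, which understates the change of genes of low level, and the median change of all genes was -0.02. Groups that do not overlap were common. Both palbociclib libraries lay above both DMSO libraries in 28.7% of the genes tested and below both in 27.4%. The 20 largest rises and falls were named only among genes without overlap, so their separation is no result of its own. Nothing in the labels says that the 2 libraries of a group come from separate cultures, so p-values measure the spread between these samples. The number of calls changed widely when a library was left out. Such a fit leaves 1 library in a group, so its spread comes only from the group that keeps 2. That spread was then shared by genes of similar level, where the reported fit also used each gene's own. With a palbociclib library left out it comes from the DMSO libraries, which lay closer together (residual SD 0.166 against 0.234 for palbociclib). Calls lost or gained in these fits, here and below, can therefore not be laid to the values of the library left out.

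HLA class II presentation held the largest rise, in CD74. Of 18 genes tested in this list 12 rose and 0 fell, with a median change of 1.97, against the 3.27% of all genes that rose. CD74 is the invariant chain that fills the peptide groove until antigen is loaded (chr5:150401639-150412910, GRCh38.p14). It stood at 297.45 and 354.33 FPKM in the palbociclib libraries, against 20.49 and 14.29 FPKM in the DMSO libraries. Both palbociclib values were far above both DMSO values, and the log2 change was 4.17 (SE 0.19, adjusted p 0.000178), the largest of all genes that the naming rule covers. In bulk RNA, more cells making a transcript and more transcript per cell cannot be told apart.

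The chains that form the class II dimers rose together. HLA-DRA, the alpha chain of HLA-DR, had 110.02 and 138.03 FPKM in palbociclib, against 17.42 and 16.59 FPKM in DMSO (log2 change 2.79, SE 0.15, adjusted p 0.000278). HLA-DRB1, its main beta chain, had 89.13 and 116.52 FPKM in palbociclib, against 9.74 and 7.53 FPKM in DMSO (3.43, SE 0.18). HLA-DPA1 had 31.98 and 39.17 against 3.04 and 2.71 FPKM (3.23, SE 0.16), and HLA-DQA1 18.07 and 16.49 against 1.63 and 1.82 FPKM (2.75, SE 0.15). In each of the 4 genes the palbociclib libraries were the high ones, as the naming rule for the largest rises requires. HLA-DQB1, HLA-DPB1, HLA-DRB5 and, outside the list, HLA-DRB3 rose by 1.93, 2.07, 2.11 and 3.08. The HLA-DRB genes are near-identical copies between which fragments can be split, so their separate values are uncertain.

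The machinery around the dimers was raised unevenly. HLA-DMA and HLA-DMB together exchange the invariant chain peptide for antigen. HLA-DMA had 19.09 and 23.38 FPKM in palbociclib, against 3.76 and 2.43 FPKM in DMSO (log2 change 2.45, SE 0.20, adjusted p 0.00118). HLA-DMB had 6.85 and 8.63 FPKM in palbociclib, against 1.01 and 1.3 FPKM in DMSO (2.02, SE 0.18). Both genes stood higher in both palbociclib libraries, which the naming rule required of HLA-DMA. CIITA, the class II coactivator, had 4.82 and 5.03 FPKM in palbociclib, against 1.26 and 1.55 FPKM in DMSO, again without overlap (1.30, SE 0.17, adjusted p 0.00791). IFI30, a lysosomal thiol reductase that unfolds antigen, rose by 0.73 (SE 0.14, adjusted p 0.0282). The constant factors that bind class II promoters with CIITA did not pass the test: RFX5 had 29.52 and 27.23 FPKM in palbociclib, against 19.83 and 21.96 FPKM in DMSO (0.42, adjusted p 0.116), RFXANK a change of 0.48 (0.204) and RFXAP one of -0.16 (0.612). Nor did the protease gene CTSS (0.55, adjusted p 0.116), HLA-DOA (0.84, 0.0604) or HLA-DOB (0.14, 0.813). Leaving out each of the 4 libraries in turn gave 11 or 12 of 18 genes higher and 0 lower.

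Class II promoters share an X box, bound by the RFX complex, and a Y box, which is an inverted CCAAT box. The promoter windows of HLA-DMA, HLA-DMB and CD74 are shown because HLA-DMA and HLA-DMB hold X box letters and CD74 had the largest rise. They run from 250 bases before to 50 bases after the annotated start and were taken from RefSeq (GRCh38.p14, minus strand, written 5′ to 3′). HLA-DMA lies at chr6:32953048-32953347, HLA-DMB at chr6:32940979-32941278 and CD74 at chr5:150412861-150413160. Capitals mark the X box letters (CC, any base, AG, any 2 bases, AC, any base, GATG) and the CCAAT letters, on either strand.
HLA-DMA: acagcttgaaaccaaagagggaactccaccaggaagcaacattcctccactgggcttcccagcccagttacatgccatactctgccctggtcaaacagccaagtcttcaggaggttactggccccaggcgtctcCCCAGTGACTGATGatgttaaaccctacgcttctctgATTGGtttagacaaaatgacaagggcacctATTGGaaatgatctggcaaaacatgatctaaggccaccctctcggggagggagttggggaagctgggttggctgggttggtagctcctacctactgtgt
HLA-DMB: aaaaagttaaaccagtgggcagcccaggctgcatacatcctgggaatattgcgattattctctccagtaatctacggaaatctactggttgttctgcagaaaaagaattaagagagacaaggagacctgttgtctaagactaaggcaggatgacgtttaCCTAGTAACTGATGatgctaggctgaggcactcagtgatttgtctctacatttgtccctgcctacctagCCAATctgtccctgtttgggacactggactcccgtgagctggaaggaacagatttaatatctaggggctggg
CD74: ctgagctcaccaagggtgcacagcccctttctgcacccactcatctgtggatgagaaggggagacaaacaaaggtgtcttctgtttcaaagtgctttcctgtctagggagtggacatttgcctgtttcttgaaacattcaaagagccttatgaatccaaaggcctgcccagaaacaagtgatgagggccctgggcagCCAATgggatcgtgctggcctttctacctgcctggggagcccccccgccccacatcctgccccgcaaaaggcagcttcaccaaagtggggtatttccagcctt
In HLA-DMA the X box began at base 135 of the window and 2 inverted CCAAT boxes followed it, and in HLA-DMB it began at base 160 and a CCAAT box followed. CD74 carried a CCAAT box and no match to those X box letters. Of the 18 genes tested 15 had a promoter in the table, and 3 of the 15 matched the X box letters on either strand, against 0.0632% of 34796 promoters. CCAAT was found in 12 of the 15, against 34.6% of all promoters. A match describes letters only.

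**Figure D1:**
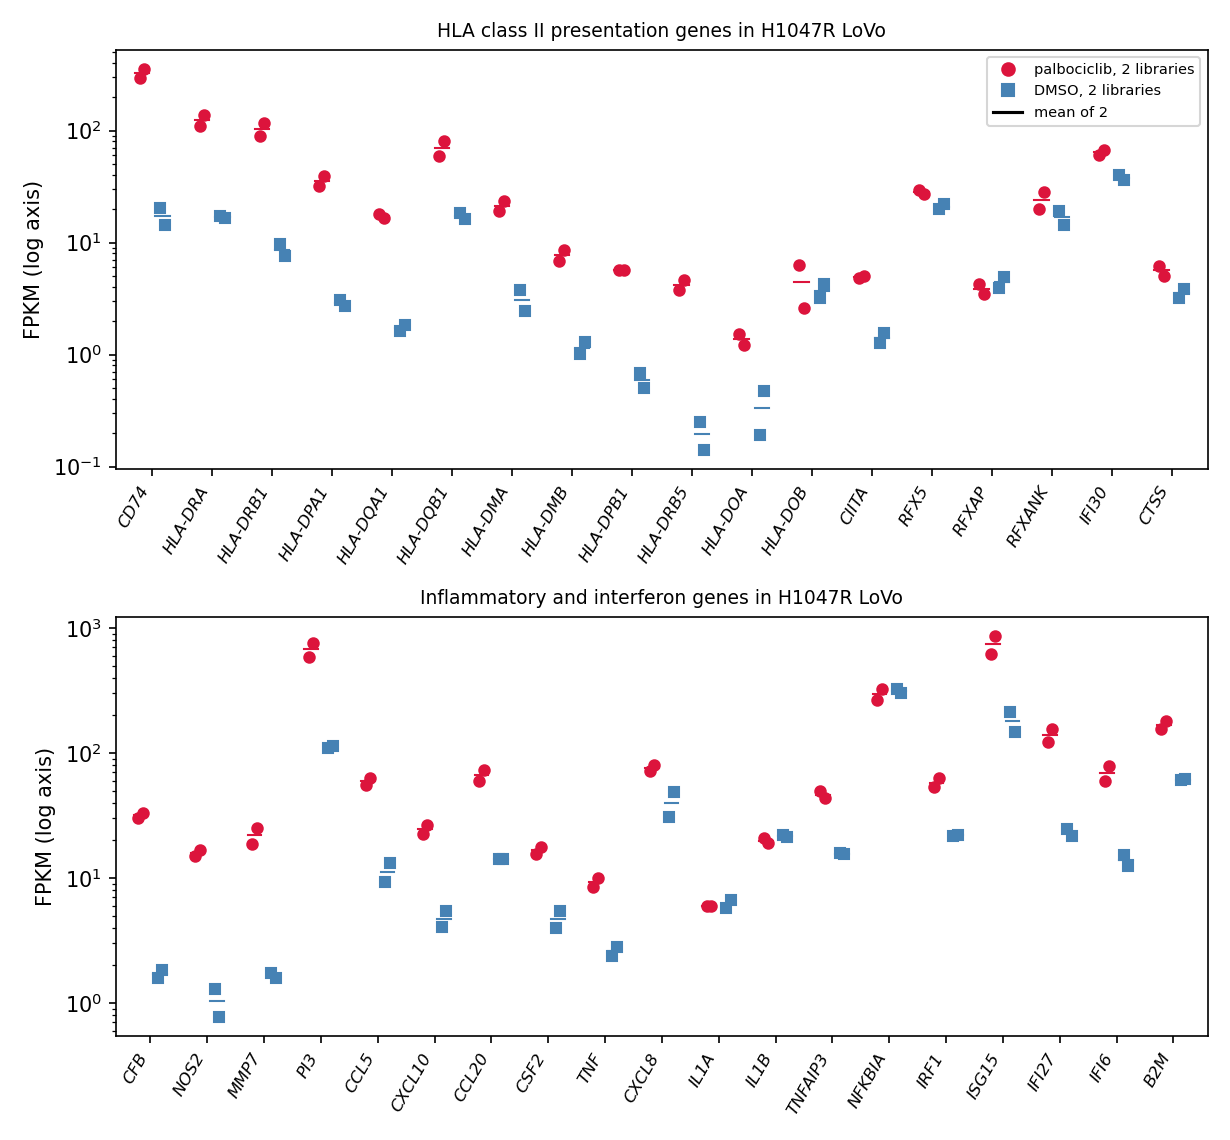
Levels in FPKM on a log axis of HLA class II genes (top) and of inflammatory and interferon genes (bottom) in H1047R LoVo cells, with 2 palbociclib libraries (circles) left of 2 DMSO libraries (squares) and a line at the mean of 2. CD74 stands at 297.45 and 354.33 FPKM in palbociclib against 20.49 and 14.29 FPKM in DMSO, while RFXAP, NFKBIA, IL1A and IL1B lie at about the same level in both groups.

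HLA class I presentation, which shows peptides from inside the cell to killer T cells, rose in 14 of 22 genes and fell in 0. The median change was 0.98, and 3.27% of all genes rose. B2M, the light chain of every class I molecule, had 156.06 and 180.71 FPKM in palbociclib, against 60.89 and 61.4 FPKM in DMSO (log2 change 1.44, SE 0.14, adjusted p 0.00231). PSMB9, a catalytic subunit of the immunoproteasome, had 59.42 and 70.77 against 26.13 and 22.04 FPKM (1.40, SE 0.15). Neither gene overlapped between groups. TAPBPL, which edits class I peptides, rose by 1.31, TAP1, the peptide transporter, by 1.05, and NLRC5, the class I coactivator, by 0.78. HLA-B, a heavy chain, had 581.39 and 735.25 FPKM in palbociclib, against 279.51 and 231.77 FPKM in DMSO (1.36, adjusted p 0.0100). It was lost without DMSO replicate 2 (adjusted p 0.0604), and fragments may be split between it and other class I genes. The list had 8 genes higher without DMSO replicate 2 and 11 to 18 in the other 3 fits with a library left out.

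Interferon-stimulated genes rose in 27 of 45 genes tested and fell in 0, beside 3.27% of all genes that rose, with a median change of 0.91. ISG15, a ubiquitin-like protein made in the interferon response, had 619.68 and 864.08 FPKM in palbociclib, against 212.17 and 147.47 FPKM in DMSO (log2 change 2.04, SE 0.23, adjusted p 0.00484). IFI27, a mitochondrial protein, had 122.5 and 156.39 FPKM in palbociclib, against 24.5 and 21.71 FPKM in DMSO (2.53, SE 0.16). IFI6 had 59.64 and 78.03 against 15.25 and 12.37 FPKM (2.23, SE 0.18). In all 3 genes both palbociclib values lay above both DMSO values, which the naming rule required of IFI27 and IFI6. ISG20, an exonuclease, rose by 2.23, SAMD9, an antiviral restriction factor, by 2.13, and RSAD2, the antiviral enzyme viperin, by 2.10. The response was not uniform: IFI44L had 2.4 and 1.95 FPKM in palbociclib, against 1.36 and 1.09 FPKM in DMSO (0.51, adjusted p 0.144), DDX60 changed by 0.00 and HERC5 by -0.51. Leaving out a library gave 22 to 33 genes higher and 0 lower.

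Among interferon signalling and sensing genes 11 of 30 rose and 0 fell (median 0.30), beside 3.27% of all genes that rose. IFNB1, interferon beta itself, was low, with 2.91 and 3.15 FPKM in palbociclib against 0.42 and 0.41 FPKM in DMSO (1.51, SE 0.17, adjusted p 0.00491). IFNL1, a type III interferon, had 3.24 and 4.55 FPKM in palbociclib, against 0.9 and 0.54 FPKM in DMSO (1.50, SE 0.21, adjusted p 0.0100). IRF1, a factor induced by interferon and NF-kB, had 52.98 and 62.61 against 21.72 and 22.07 FPKM (1.36, SE 0.14). IRF1 was higher in both palbociclib libraries. IFNB1 and IFNL1 reached 1 FPKM only in palbociclib, so they entered the test through their high group and its outcome is no support for them. STING1, the adaptor of cytosolic DNA sensing, rose by 1.29, and the RNA sensors DDX58 and IFIH1 by 0.99 and 0.87, whereas the DNA sensor CGAS changed by -0.01 (adjusted p 0.974). The receptor genes IFNAR1 and IFNAR2 and the kinase JAK1 changed by -0.04, 0.17 and 0.05.

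The interferon-stimulated response element, bound by ISGF3 and IRF factors, was searched as GAAA, any 2 bases, GAAA on both strands. The windows of IFI6 (chr1:27672143-27672442, minus strand) and ISG15 (chr1:1013247-1013546, plus strand) are printed from RefSeq GRCh38.p14 because both rose and both hold the letters more than once, marked in capitals. In ISG15 the 2 matches overlap.
IFI6: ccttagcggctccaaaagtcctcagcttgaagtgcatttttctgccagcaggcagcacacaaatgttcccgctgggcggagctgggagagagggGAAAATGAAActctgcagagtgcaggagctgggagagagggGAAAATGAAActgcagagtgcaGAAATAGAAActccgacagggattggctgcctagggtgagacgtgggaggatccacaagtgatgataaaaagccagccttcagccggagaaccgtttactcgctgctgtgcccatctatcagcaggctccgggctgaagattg
ISG15: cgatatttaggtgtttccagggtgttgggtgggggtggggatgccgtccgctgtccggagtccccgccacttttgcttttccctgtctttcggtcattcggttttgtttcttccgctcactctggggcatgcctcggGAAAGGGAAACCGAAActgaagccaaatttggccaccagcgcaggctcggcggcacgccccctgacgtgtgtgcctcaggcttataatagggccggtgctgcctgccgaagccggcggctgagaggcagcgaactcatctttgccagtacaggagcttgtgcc
Of the 45 interferon-stimulated genes 35 had a promoter in the table, and 26 of these held the letters, against 3.57% of all promoters.

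NF-kB subunits and targets rose in 9 of 20 genes and fell in 0 (median 0.64), beside 3.27% of all genes that rose. TNFAIP3, the A20 enzyme that brakes NF-kB, had 49.54 and 43.39 FPKM in palbociclib, against 15.9 and 15.43 FPKM in DMSO (log2 change 1.51, SE 0.14, adjusted p 0.00176). BIRC3 and TNFRSF9 rose by 1.14 and 1.19, and the subunit genes NFKB1, NFKB2 and RELB by 0.70, 0.97 and 0.97. NFKBIA, the inhibitor that NF-kB itself induces, had 267.07 and 328.37 FPKM in palbociclib, against 322.81 and 303.57 FPKM in DMSO. Its groups overlapped, with a log2 change of -0.08 (SE 0.17, adjusted p 0.793). Leaving out a library gave 6 to 14 genes higher, fewest without DMSO replicate 2 and most without palbociclib replicate 1, and 0 to 2 lower.

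Chemokine and cytokine genes rose in 13 of 28 and fell in 0 (median 0.74), beside 3.27% of all genes that rose. CCL5, which attracts T cells, had 55.34 and 63.08 FPKM in palbociclib, against 9.31 and 13.12 FPKM in DMSO (log2 change 2.32, SE 0.18, adjusted p 0.00108). CCL20, the ligand of CCR6, had 59.55 and 73.53 FPKM in palbociclib, against 14.09 and 14.27 FPKM in DMSO (2.15, SE 0.15). CXCL10, an interferon-induced ligand of CXCR3, had 22.42 and 26.45 against 4.03 and 5.44 FPKM (2.16, SE 0.18). None of the 3 overlapped between groups, as the naming rule for the largest rises requires. CSF2, which encodes GM-CSF, rose by 1.63 and IL32 by 1.55. LTB and TNF, both of the TNF family, rose by 1.52 and 1.51.

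Cytokines known best from the senescence secretome did not move as a block. CXCL8, a neutrophil attractant, had 72.24 and 79.9 FPKM in palbociclib, against 30.53 and 49.01 FPKM in DMSO, where the DMSO libraries differed most (log2 change 0.95, SE 0.21, adjusted p 0.0486, lost without DMSO replicate 1 at 0.179). CXCL2 had 63.74 and 74.14 against 34.75 and 39.3 FPKM (0.88, SE 0.14, adjusted p 0.0195, lost without DMSO replicate 1 at 0.0572). IL1A had 6 and 5.97 FPKM in palbociclib, against 5.72 and 6.71 FPKM in DMSO (-0.04, adjusted p 0.885), and IL1B and CXCL1 changed by -0.12 and 0.28 without passing. IL6 was under 1 FPKM in all 4 libraries, at 0.28 and 0.4 in palbociclib against 0.06 and 0.03 in DMSO, and was not tested. Leaving out a library gave 9 to 15 of the 28 genes higher and 0 lower.

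The promoter window of CCL20 (chr2:227813592-227813891, plus strand, RefSeq GRCh38.p14) is shown for its NF-kB letters, which are GGG, any 2 bases, TTTCC on either strand, here in capitals and in reverse orientation from base 172 of the window.
CCL20: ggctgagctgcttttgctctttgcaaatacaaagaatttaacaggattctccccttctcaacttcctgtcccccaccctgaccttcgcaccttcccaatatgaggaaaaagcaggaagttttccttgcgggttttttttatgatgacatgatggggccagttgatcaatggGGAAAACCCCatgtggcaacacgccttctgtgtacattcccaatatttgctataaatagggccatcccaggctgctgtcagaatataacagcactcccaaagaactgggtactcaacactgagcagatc
The letters were found in 7 of the 20 chemokine and cytokine promoters and in 10 of the 18 NF-kB promoters in the table, against 1.91% of all promoters.

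Secreted defence genes and proteases held several of the strongest rises. CFB, complement factor B, had 30.05 and 33.29 FPKM in palbociclib, against 1.57 and 1.84 FPKM in DMSO (log2 change 3.59, SE 0.15, adjusted p 0.000178). MMP7, the epithelial matrix protease matrilysin, had 18.78 and 25.2 FPKM in palbociclib, against 1.74 and 1.58 FPKM in DMSO (3.10, SE 0.18). NOS2, inducible nitric oxide synthase, had 15.12 and 16.69 against 1.29 and 0.77 FPKM (3.07, SE 0.18). The palbociclib values of all 3 exceeded every DMSO value, as the naming rule for the largest rises requires. PI3, the elastase inhibitor elafin, had 589.23 and 765.39 FPKM in palbociclib, against 109.51 and 114.86 FPKM in DMSO (2.57, SE 0.17). The related inhibitor SLPI rose by 1.54 and the iron-binding defence protein LCN2 by 1.19. By list, 3 of 12 complement, 5 of 11 epithelial defence and 5 of 16 protease genes rose and 0 fell. Of all genes 3.27% rose and 1.58% fell. Among the listed genes C4BPB rose by 1.03, PLAUR by 1.22, SERPINB1 by 1.39 and SERPINB5 by 1.07. CD55, which shields cells from complement, rose by 0.81 but was lost without either DMSO library (adjusted p 0.0567 and 0.292). Immune checkpoint and NK ligands held few calls: CD274, which encodes PD-L1, rose by 0.79 and LGALS9 by 1.04, HHLA2 fell by 0.78, and 14 of 17 were not called. LGALS9 was lost without DMSO replicate 2, and CD274 and HHLA2 without either DMSO library. In either direction 4.85% of all genes were called.

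Cell cycle genes were lower as a group, although few single genes passed. Of 56 genes of mitosis and chromosome segregation 0 rose and 7 fell, against 1.58% of all genes that fell. The median change was -0.39, 51 of the 56 changes were negative, and 31 genes were lower at an unadjusted p below 0.05. MKI67, the proliferation marker Ki-67 (chr10:128096659-128126423), had 31.65 and 16.65 FPKM in palbociclib, against 55.53 and 61.22 FPKM in DMSO. Both palbociclib values lay below both DMSO values but differed widely from each other, and the log2 change was -1.30 (SE 0.26, adjusted p 0.0341). TOP2A, topoisomerase II alpha, had 54.84 and 33.36 FPKM in palbociclib, against 95.47 and 109.09 FPKM in DMSO (-1.23, SE 0.22, adjusted p 0.0259). ANLN, NUSAP1, SMC4, NCAPD2 and DLGAP5, which act in cytokinesis, the spindle and chromosome condensation, fell by 0.88, 0.84, 0.85, 0.73 and 0.63, SMC4 being lost without DMSO replicate 2 (0.141).

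Several mitotic genes did not pass. CCNB1, the mitotic cyclin, had 90.5 and 94.87 FPKM in palbociclib, against 98.25 and 93.84 FPKM in DMSO (-0.05, adjusted p 0.838). PLK1, BIRC5 and TTK changed by 0.20, -0.09 and -0.08. The count of lower genes in the list was 31 without palbociclib replicate 1, 18 without palbociclib replicate 2, 10 without DMSO replicate 1 and 4 without DMSO replicate 2, with 0 higher in each. Pooling the spread over all 18 libraries gave 38 lower, and the TPM scale gave 1.

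The promoter window of MKI67 (chr10:128126374-128126673, minus strand, RefSeq GRCh38.p14) is shown because cell cycle genes silenced by RB family complexes often hold a cell cycle homology region, TTTGAA, near CCAAT boxes. Capitals mark both on either strand, and the last pair overlaps by 1 base.
MKI67: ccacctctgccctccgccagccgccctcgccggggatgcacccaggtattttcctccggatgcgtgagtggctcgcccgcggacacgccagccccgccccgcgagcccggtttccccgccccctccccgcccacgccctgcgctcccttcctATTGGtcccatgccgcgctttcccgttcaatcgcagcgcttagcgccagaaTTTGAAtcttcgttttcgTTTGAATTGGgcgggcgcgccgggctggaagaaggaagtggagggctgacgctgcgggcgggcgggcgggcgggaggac
TTTGAA was found in 36 of the 49 mitosis promoters in the table, against 15.2% of all promoters, and CCAAT in 38 of the 49, against 34.6%.

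DNA replication and nucleotide synthesis genes fell in 5 of 47 and rose in 0 (median -0.23), beside 1.58% of all genes that fell. PRIM1, the primase that starts DNA strands, had 10.51 and 10.48 FPKM in palbociclib, against 21.75 and 25.32 FPKM in DMSO (log2 change -1.09, SE 0.14, adjusted p 0.00839). CDT1, which licenses origins, had 17.49 and 22.73 FPKM in palbociclib, against 46.55 and 34.99 FPKM in DMSO (-0.98, SE 0.19, adjusted p 0.0299, lost without DMSO replicate 1 at 0.0542). ORC1, RRM1 and RFC4 fell by 0.77, 0.59 and 0.58, and ORC1 and RRM1 were lost without either DMSO library (ORC1 0.0773 and 0.157, RRM1 0.197 and 0.373). MCM2, MCM4 and MCM5, subunits of the replicative helicase, stayed within -0.02 to 0.10 and did not pass, and PCNA changed by -0.36 (adjusted p 0.171). Without palbociclib replicate 1 the list had 3 higher and 15 lower, and without either DMSO library 2 lower. In homologous recombination and Fanconi anemia genes 1 of 25 passed, beside 4.85% of all genes in either direction. It was RAD54B at -0.88, which was lost without DMSO replicate 2.

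The drug's own pathway moved at its D-type cyclins. CCND1, cyclin D1, had 145.51 and 134.44 FPKM in palbociclib, against 85.46 and 85.34 FPKM in DMSO (log2 change 0.71, SE 0.13, adjusted p 0.0295). CCND2 and CCND3 rose by 0.79 and 0.83. Without DMSO replicate 2 none of the 3 passed (adjusted p 0.302, 0.14 and 0.189), and CCND1 was lost without DMSO replicate 1 too (0.144). CDK4 had 119.95 and 163.22 FPKM in palbociclib, against 114.18 and 102.02 FPKM in DMSO (0.37, adjusted p 0.241). CDK6 changed by -0.29 and RB1 by 0.02, and neither passed. Of the E2F targets in the list, CCNA2, the S phase cyclin, fell by 0.61 and E2F2 by 0.87, while E2F1 had 8.2 and 9.04 FPKM in palbociclib, against 12.02 and 11.2 FPKM in DMSO (-0.39, adjusted p 0.156). CCNE1, cyclin E1, changed by 0.48 (adjusted p 0.101). In all 3 of 24 genes rose and 2 fell, beside 3.27% and 1.58% of all genes. These calls were lost without DMSO replicate 2.

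**Figure D2:**
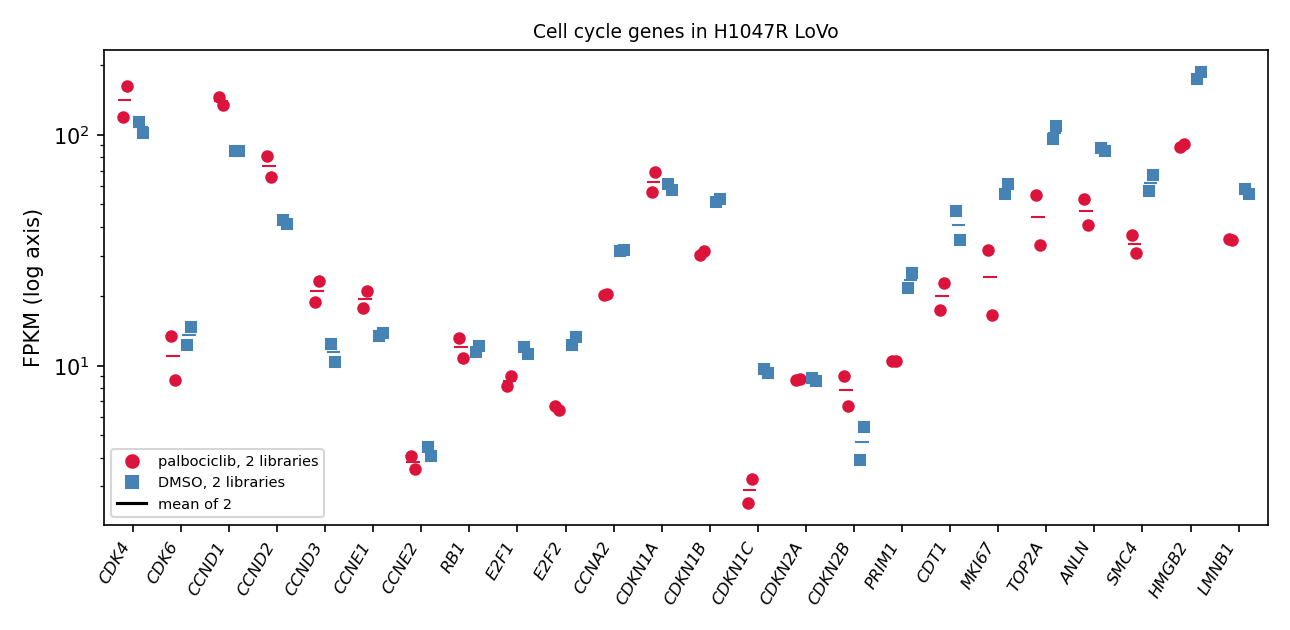
Levels in FPKM on a log axis of cell cycle genes in H1047R LoVo cells, 2 palbociclib libraries (circles) left of 2 DMSO libraries (squares), with a line at the mean of 2. MKI67 stands at 31.65 and 16.65 FPKM in palbociclib against 55.53 and 61.22 FPKM in DMSO, the D-type cyclins lie higher in palbociclib, and CDKN1A and CDKN2A overlap between the groups.

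Of 7 CDK inhibitor genes, which mark many senescent cells, 0 rose and 2 fell, beside 3.27% and 1.58% of all genes. CDKN1A, which encodes p21, had 56.32 and 68.88 FPKM in palbociclib, against 61.31 and 57.78 FPKM in DMSO, with overlapping groups (log2 change 0.06, SE 0.15, adjusted p 0.813). CDKN2A, the p16 and ARF gene, had 8.68 and 8.73 FPKM in palbociclib, against 8.86 and 8.55 FPKM in DMSO (0.00). CDKN2B, which encodes p15, had 8.99 and 6.69 against 3.91 and 5.45 FPKM (0.64, adjusted p 0.113). CDKN1C, which encodes p57, fell to 2.54 and 3.23 FPKM in palbociclib, against 9.72 and 9.29 FPKM in DMSO (-1.44, SE 0.16, adjusted p 0.00484). CDKN1B, which encodes p27, had 30.11 and 31.39 against 50.93 and 52.63 FPKM (-0.73, adjusted p 0.0226) and was lost without either DMSO library (0.0666 and 0.181).

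Nuclear proteins that decline in senescent cells were lower. HMGB2, a chromatin architectural protein, had 88.91 and 91.43 FPKM in palbociclib, against 175.28 and 187.91 FPKM in DMSO, and fell by 1.00 on the log2 scale (SE 0.14, adjusted p 0.00923). LMNB1, lamin B1, had 35.28 and 35.01 FPKM in palbociclib, against 58.12 and 55.66 FPKM in DMSO (-0.68, SE 0.13, adjusted p 0.0282). LBR, the lamin B receptor, fell by 0.76. The groups did not overlap in HMGB2 or LMNB1, but LMNB1 was lost without either DMSO library (0.14 and 0.186) and LBR without DMSO replicate 2 (0.204). Of the 9 lamin and HMG genes 3 fell and 0 rose, beside 1.58% and 3.27% of all genes. HMGA1 and HMGA2 changed by -0.06 and -0.02.

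Of 30 p53 targets 2 rose and 2 fell (median 0.06), beside 3.27% and 1.58% of all genes. GDF15, a stress cytokine, fell to 28.84 and 35.85 FPKM in palbociclib, against 64.28 and 67.75 FPKM in DMSO (log2 change -1.01, SE 0.15, adjusted p 0.0122). CCNG1 fell by 0.70. TP53I3, a quinone reductase, had 23.25 and 30.15 FPKM in palbociclib, against 8.62 and 8.46 FPKM in DMSO (1.53, SE 0.16, adjusted p 0.00341), and SESN2 rose by 0.88. SESN2 was lost without DMSO replicate 2 and CCNG1 without either DMSO library. MDM2 and FAS changed by -0.47 and 0.06 without passing. Without palbociclib replicate 1 the list had 6 higher and 5 lower, and without DMSO replicate 2 it had 1 and 1. In the BCL2 family and caspases 5 of 22 rose, beside 3.27% of all genes. BAK1, a pore-forming killer, rose by 0.98, PMAIP1, which encodes NOXA, by 0.87 and BCL2L1, which encodes the survival protein BCL-XL, by 0.71. PMAIP1 was lost without DMSO replicate 1 (0.0639) and BCL2L1 without either DMSO library (0.129 and 0.279). That list had 1 gene higher without DMSO replicate 1, 2 without DMSO replicate 2 and 9 without palbociclib replicate 1.

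Among the genes that the naming rule covers, the largest fall was in ALPG, the germ cell type alkaline phosphatase (chr2:232406844-232410714). It had 17.19 and 21.7 FPKM in palbociclib, against 127.41 and 160.94 FPKM in DMSO (log2 change -2.83, SE 0.17, adjusted p 0.000368). Its near-identical neighbour ALPP changed by -0.50 without passing (adjusted p 0.0946), and fragments may be split between the pair. AKR1C3, an aldo-keto reductase of steroid metabolism with close paralogs, had 6.95 and 5.06 FPKM in palbociclib, against 18.76 and 35.95 FPKM in DMSO (-1.96, SE 0.28, adjusted p 0.0120). FGFBP1, a carrier that releases FGF from matrix, had 35.9 and 31.61 against 110.21 and 120.04 FPKM (-1.74, SE 0.14, adjusted p 0.00112). MYB, a factor of proliferating crypt and blood progenitors, had 22.61 and 15.03 FPKM in palbociclib, against 54.99 and 60.09 FPKM in DMSO (-1.59, SE 0.19). The palbociclib libraries were the low ones in all 4 genes, as the naming rule requires, and the DMSO replicates of AKR1C3 differed most.

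Other genes among the 20 largest falls fell by less than MYB, except HBA2. The methyltransferase-like METTL7A fell by 1.55, the vitamin B12 binder TCN1 by 1.47, the spindle proteins CCSAP and GPSM2 by 1.42 and 1.37, and the clock output factor DBP by 1.28. KIF5B, a kinesin motor, SCNN1A, a sodium channel subunit, ZNF217, HOXB4 and ABRAXAS1 fell by 1.26, 1.24, 1.22, 1.21 and 1.16, the last lost without DMSO replicate 2 (0.074). HBA2, an alpha globin with a near-identical copy, had 2.76 and 0.99 FPKM in palbociclib, against 6.46 and 13.67 FPKM in DMSO (log2 change -1.94, adjusted p 0.0312).

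Genes of the intestinal surface rose in a selective way. In the CEACAM family of adhesion molecules 3 of 6 rose and 1 fell, beside 3.27% and 1.58% of all genes. CEACAM5, the carcinoembryonic antigen, had 49.64 and 45.33 FPKM in palbociclib, against 10.73 and 10.89 FPKM in DMSO (log2 change 2.04, SE 0.13, adjusted p 0.000504). CEACAM6 and CEACAM7 rose by 1.79 and 1.46. CEACAM8, which is best known from granulocytes, fell by 1.27 and was lost without DMSO replicate 2 (0.103). MUC1, a membrane mucin, had 25.13 and 27.53 FPKM in palbociclib, against 6.41 and 5.17 FPKM in DMSO (2.01, SE 0.16), while MUC2, the secreted mucin of goblet cells, changed by 0.19. GUCA2A, the enterocyte hormone guanylin, had 17.47 and 24.41 against 4.29 and 3.09 FPKM (2.22, SE 0.21), and PHGR1 rose by 1.02, but LGALS4 fell by 1.10, CDH17 by 0.84 (lost without either DMSO library, at 0.0935 and 0.252), and CDX2 and HNF4A, the intestinal master factors, changed by 0.08 and -0.40 without passing. IGFL1, a secreted growth factor-like protein of skin, had 11.27 and 14.91 FPKM in palbociclib, against 1.72 and 1.16 FPKM in DMSO (2.53, SE 0.20).

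Some keratins of stressed or basal epithelium and some laminin chains were higher too. In the list of keratins and epithelial adhesion 3 of 22 rose and 1 fell (median 0.24), beside 3.27% and 1.58% of all genes. KRT16 and KRT17 rose by 1.97 and 2.01 and, outside the list, KRT14 by 1.98. These keratins are close copies whose fragments may be split. KRT19 rose by 0.99 with a limma adjusted p of 0.0488, just under the threshold. The laminin chain genes LAMA3 and LAMB3 rose by 1.25 and 1.11, THBS1, thrombospondin, by 1.42, and COL17A1, a hemidesmosome collagen, by 1.10. The mesenchymal genes VIM and FN1 changed by -0.55 and -0.29 without passing. In the list of epithelial to mesenchymal transition and matrix 5 of 18 rose and 0 fell, beside 3.27% and 1.58% of all genes.

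Stress, growth factor and metabolic lists moved in single members. Among ATF4 targets 4 of 26 rose and 0 fell, with a median of -0.08, beside 3.27% and 1.58% of all genes. DDIT3, which encodes CHOP, had 64.53 and 60.49 FPKM in palbociclib, against 22.44 and 25.21 FPKM in DMSO (log2 change 1.36, SE 0.13, adjusted p 0.00257). CHAC1, a glutathione-degrading enzyme, and ATF5 rose by 1.31 and 1.19. The amino acid genes of that list, ASNS, PSAT1 and PHGDH, changed by -0.24, -0.32 and -0.55 without passing, and without palbociclib replicate 1 the list had 7 higher and 5 lower. ATF3, an immediate early stress factor, had 42.38 and 50.21 FPKM in palbociclib, against 16.41 and 17.8 FPKM in DMSO (1.38, SE 0.14). Within ERK output and immediate early genes 4 of 27 rose and 2 fell, beside 3.27% and 1.58% of all genes. The phosphatases DUSP4 and DUSP6 rose by 0.84 and 0.94, and SPRY4, a feedback inhibitor, fell by 0.79. All 3 were lost without DMSO replicate 2 (0.121, 0.0844 and 0.183), which left 1 higher and 0 lower, against 7 higher without palbociclib replicate 1.

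In the PI3K, insulin and FOXO list 1 of 30 genes rose and 3 fell, beside 3.27% and 1.58% of all genes. The median was -0.35, with 23 negative changes. IRS2, the insulin receptor substrate that FOXO factors induce, had 12.41 and 10.7 FPKM in palbociclib, against 24.93 and 24.15 FPKM in DMSO (log2 change -1.03, SE 0.14, adjusted p 0.00986). PDK4 and PCK1, also FOXO targets, fell by 1.12 and 1.14, and PIK3R3, a regulatory subunit of the kinase, rose by 1.00. PIK3CA had 5.95 and 4.38 FPKM in palbociclib, against 6.36 and 7.19 FPKM in DMSO (-0.34, adjusted p 0.275), values that do not separate mutant from wild-type transcripts. EGFR had 65.86 and 38.94 FPKM in palbociclib, on either side of 49.46 and 49.93 FPKM in DMSO (0.03, adjusted p 0.954), while ERBB3 fell by 0.79 and the ligand gene TGFA rose by 0.69. ERBB3 was lost without DMSO replicate 2 and TGFA without either DMSO library. The list had 3 higher and 13 lower without palbociclib replicate 1.

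Metallothioneins, which bind zinc and copper, rose in 4 of 7 genes and fell in 0 (median 0.75), beside 3.27% and 1.58% of all genes. MT1M rose by 1.42, MT1E by 1.16, MT1X by 0.99 and MT1G by 0.75, although they are close copies. Fewer of them rose without DMSO replicate 2 and more without palbociclib replicate 1. Among lysosomal genes 5 of 38 rose and 0 fell (median 0.30), beside 3.27% and 1.58% of all genes. GLA, which degrades glycosphingolipids, rose by 1.01. More lysosomal genes rose without palbociclib replicate 1 and fewer without DMSO replicate 2. GLB1, the galactosidase behind the usual stain for senescent cells, changed by 0.26 without passing. Sterol and fatty acid synthesis had 1 of 34 higher and 3 lower, beside 3.27% and 1.58% of all genes. INSIG1, a sterol-regulated brake, fell by 0.94 and SCD, a fatty acid desaturase, by 0.82, SCD being lost without either DMSO library. WARS1, the tryptophan tRNA synthetase that interferon gamma induces, had 164.57 and 163.45 FPKM in palbociclib, against 74.38 and 67.44 FPKM in DMSO (log2 change 1.20, SE 0.14, adjusted p 0.00460), the other synthetase called being HARS1 (0.63, lost without either DMSO library at 0.155 and 0.423).

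Among Wnt targets and intestinal stem cell genes DKK1, a secreted Wnt inhibitor, had 83.2 and 93.81 FPKM in palbociclib, against 33.64 and 36.95 FPKM in DMSO (log2 change 1.30, SE 0.14, adjusted p 0.00341), and MYB was the only one of the 21 that fell. LGR5, the stem cell receptor, had 51.74 and 30.92 FPKM in palbociclib, on either side of 41.02 and 42.25 FPKM in DMSO (-0.06, adjusted p 0.899). MYC had 76.31 and 89.58 against 65.54 and 57.75 FPKM (0.42, adjusted p 0.138). In the MYC network and ribosome biogenesis 2 of 37 rose, MXD4, an antagonist of MYC, by 0.91 and its partner MAX by 0.63, and MXD3 fell by 0.95. MAX was lost without either DMSO library (0.174 and 0.283) and MXD4 without DMSO replicate 2 (0.095), which left 0 higher, against 13 without palbociclib replicate 1. In TGF-beta and BMP genes BAMBI rose by 1.03 and ID3 fell by 1.00, the only calls among 24 tested. The 1 or 2 calls per direction in these Wnt, MYC and TGF-beta lists stand beside 3.27% of all genes higher and 1.58% lower. No gene passed in hypoxia and glycolysis (33 tested, 6 higher and 1 lower at an unadjusted p below 0.05), cytosolic ribosomal proteins (80 tested, 1 and 1) or mitochondrial ribosomal proteins (78 tested, 6 and 3) with limma. Without palbociclib replicate 1 these lists had 10, 5 and 22 genes higher and 2, 1 and 1 lower.

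**Figure D3:**
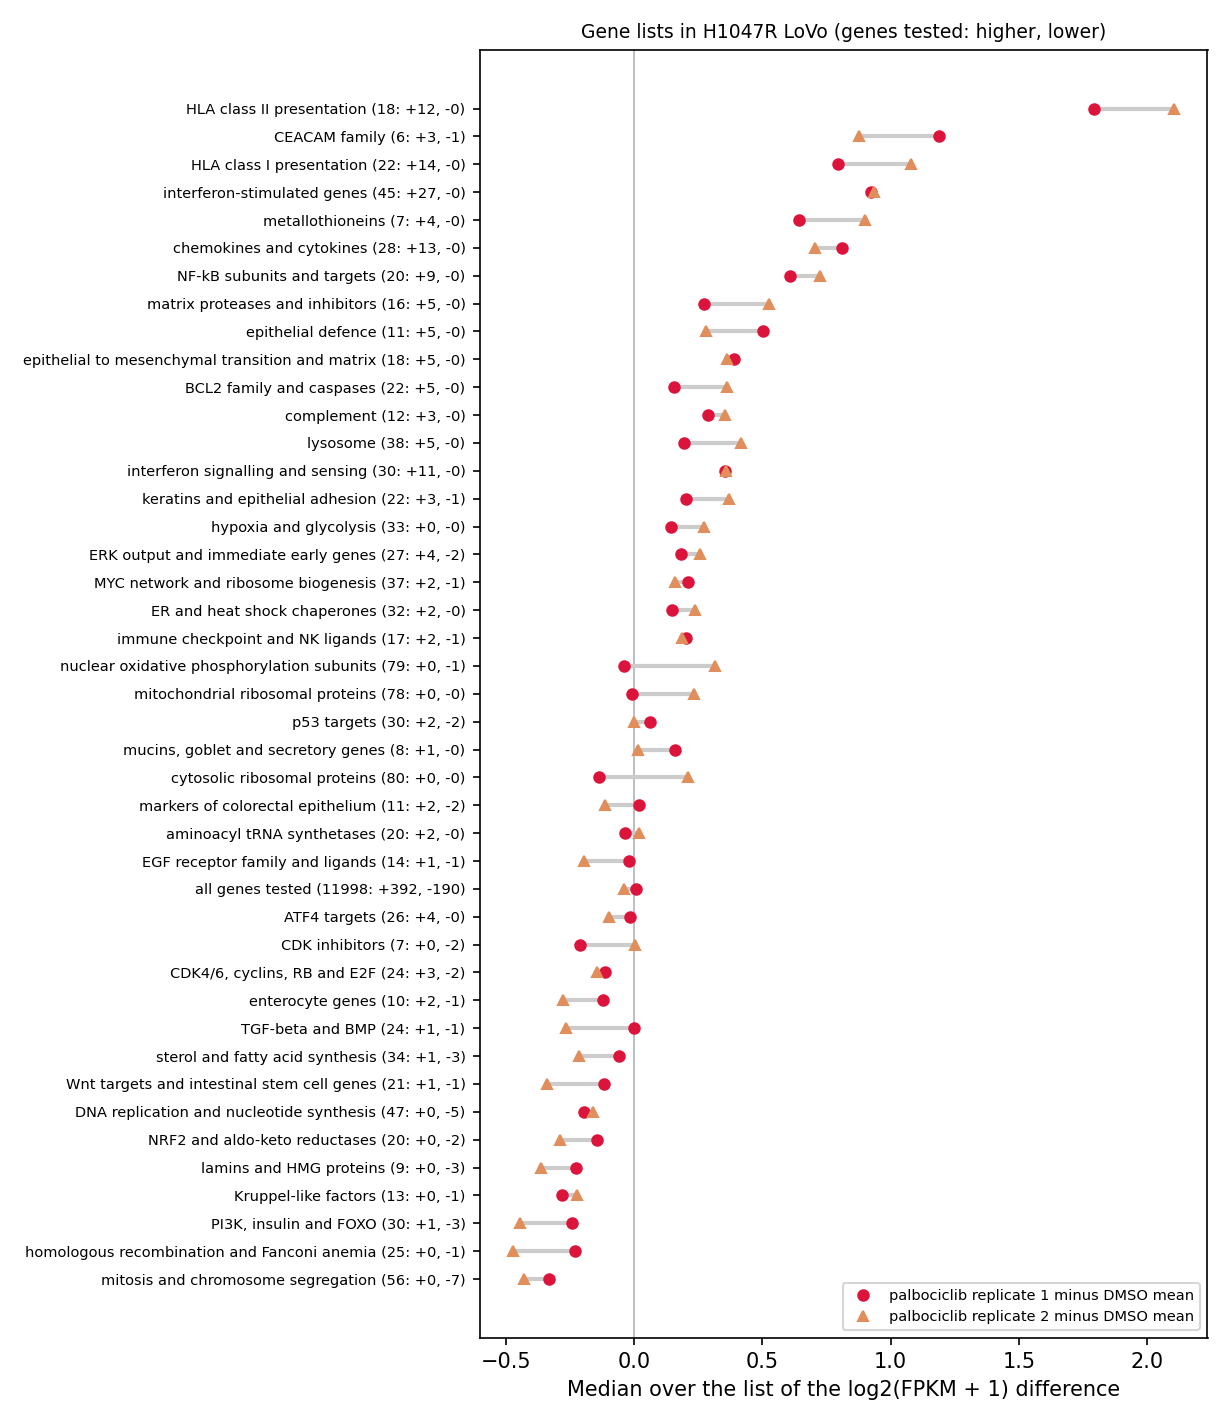
Median over each of 42 gene lists with at least 5 genes tested, and over all genes, of log2(FPKM + 1) in palbociclib replicate 1 (circles) and replicate 2 (triangles) minus the DMSO mean, with the numbers tested, higher and lower in brackets. HLA class II stands at 1.79 and 2.11 and mitosis at -0.33 and -0.43, while cytosolic ribosomal proteins lie at -0.14 in replicate 1 and 0.21 in replicate 2.

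The palbociclib replicates differed along transcript length. Across 11909 genes with a length in GENCODE 29, the log2 difference of palbociclib replicate 1 minus replicate 2 correlated with length at a Spearman rho of 0.35, that of DMSO replicate 1 minus 2 at -0.19, and the log2 change at -0.19, as descriptions across genes of the same libraries. With the genes split by length into 5 equal bins, the median log2 change was 0.04 in the bin of shortest transcripts and -0.16 in the longest. Higher calls numbered 108 in the shortest bin and 49 in the longest, lower calls 37 and 41. MKI67 has a long median transcript (12047.5 bases) and CD74 one of 1138 bases. With the trend of length removed from each library, 517 genes were higher and 315 lower, including 13 of 18 class II genes higher and 13 of 56 mitosis genes lower. Whether fragment length, RNA quality or the cells differed between the replicates was not tested.

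**Figure D4:**
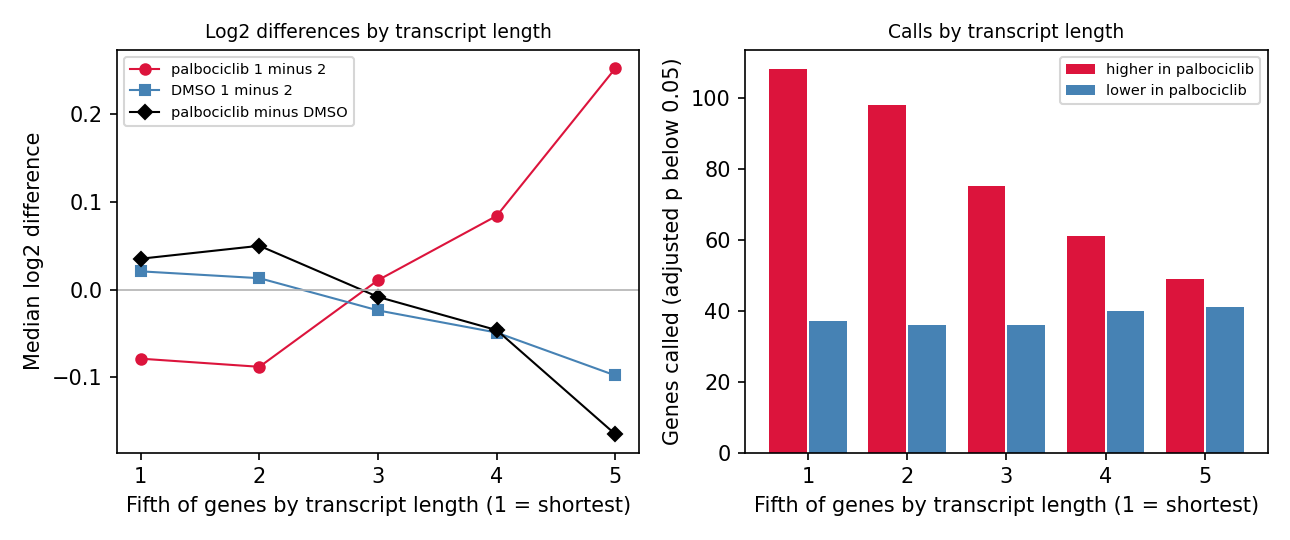
Left, median log2 difference in 5 bins of genes by transcript length (1 = shortest) for palbociclib replicate 1 minus 2, DMSO replicate 1 minus 2 and palbociclib minus DMSO. Right, genes called higher or lower in palbociclib per bin, with higher calls at 108 in the shortest bin and 49 in the longest.

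Differences in response between H1047R and the other lines were tested as palbociclib minus DMSO in H1047R minus the same in the other line, over 8 libraries. Each comparison shares the 4 H1047R libraries. Against wild type 128 genes responded more positively in H1047R (1.04%) and 195 more negatively (1.58%) of 12355 tested, or 2.61% in either direction. Against E545K these were 668 (5.41%) and 1007 (8.16%) of 12340, or 13.6%. The median difference of all genes was -0.17 against wild type and -0.13 against E545K, so the values below are relative to these. The calls and adjusted p given with them belong to the difference before this shift, and the shifted values were not tested. The balance depended on scaling: the share of calls that was higher was 39.6% against wild type and 39.9% against E545K. Quantile normalization gave 65.9% and 57.3%, and median-centring 76.4% and 67.4%. The number called against wild type also changed widely when one of the 8 libraries was left out. These fits pool the spread of lines that differ in it (residual SD 0.0923 and 0.0905 in wild-type DMSO and palbociclib, 0.166 and 0.234 in H1047R). They also leave 1 library in a group, so they cannot tell whether calls rest on the values of the library left out.

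HLA class II genes were among those that responded more positively in H1047R than in the other lines. Against wild type 10 of 18 genes passed higher and 0 lower, with a relative median of 1.20, beside 1.04% of all genes higher. Against E545K 11 of 18 passed higher and 0 lower, with a relative median of 1.00, beside 5.41% of all genes higher. Whether the 10 calls against wild type rest on single libraries of that line cannot be told from fits with a library left out. The CD74 change was 4.17 in H1047R, 3.29 in E545K and 2.26 in wild type, from mean DMSO levels of 17.4, 7.25 and 27.8 FPKM. The relative difference was 2.07 against wild type and 1.01 against E545K. Before the shift it was 1.90 against wild type (SE 0.22, adjusted p 0.0140), lost when any wild-type library was left out. Against E545K it was 0.88 before the shift (SE 0.25, adjusted p 0.04998, just under the threshold). CIITA had mean levels of 4.93 FPKM in palbociclib against 1.41 FPKM in DMSO in H1047R, 2.37 against 1.06 FPKM in E545K and 1.55 against 0.915 FPKM in wild type, and its difference passed against wild type (adjusted p 0.0351) and not against E545K (0.0558). CFB differed by 1.54 relative to the median against wild type and by 1.85 against E545K.

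Other genes split the lines by what happened in wild type or E545K. IFI27 rose in H1047R and stood at a mean of 212 FPKM in palbociclib against 185 FPKM in DMSO in wild type (relative difference 2.50, SE 0.17, adjusted p 0.00296). NOS2, CHAC1, CXCL8 and CXCL2 also responded more positively in H1047R than in wild type, by 2.48, 2.36, 2.22 and 2.14. CXCL8 had 48.84 and 47.75 FPKM in palbociclib, against 104.89 and 104.75 FPKM in DMSO in wild type, lower in palbociclib where H1047R was higher. Lower responses than in wild type were seen in NPIPA3 (-2.01), HOXB4 (-1.71), FAM151A (-1.38), ALPG (-1.32), ING4 (-1.28) and ZNF514 (-1.26), and NPIPA3 belongs to a family of near-identical copies. FAM151A and ZNF514 were not called with median-centring. Of the 12 genes named here and above, all but IFI27, CHAC1 and CXCL2 were lost when at least 3 of the 4 wild-type libraries were left out singly.

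Against E545K, CDKN1A responded more positively in H1047R by 2.86 relative to the median (SE 0.15, adjusted p 0.000164). In E545K it had 47.74 and 49.19 FPKM in palbociclib, against 308.03 and 318.74 FPKM in DMSO, while in H1047R DMSO it had 61.31 and 57.78 FPKM. KRT14, INSIG1, GDF15, DUSP5 and KLF2 differed by 2.72, 2.59, 2.53, 2.36 and 2.14 in the same direction. IFI44L, CCL20, CXCL2, LGR5, RARRES1 and MYB differed by -2.49, -2.10, -1.94, -1.94, -1.90 and -1.90. CCL20 had 35.61 and 31.43 FPKM in palbociclib, against 0.78 and 0.56 FPKM in DMSO in E545K, so the H1047R cells ended higher in palbociclib from a DMSO level that was higher as well. KLF2 and LGR5 were lost without E545K palbociclib replicate 1 (adjusted p 0.0538 and 0.0525), without which 81 genes in all were called.

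Lists followed these genes. Against E545K p53 targets responded more positively in 16 of 30 genes, sterol synthesis in 15 of 34 and ERK output in 11 of 27, with 0 lower in each, beside 5.41% of all genes higher. Interferon-stimulated genes responded more negatively in 22 of 45 and more positively in 3, beside 8.16% of all genes lower. Against wild type chemokines and cytokines were higher in 9 of 29 and interferon-stimulated genes in 3 of 45, with 0 and 1 lower, beside 1.04% of all genes higher and 1.58% lower. MKI67 (relative difference -0.19 against wild type and -0.60 against E545K), TOP2A (-0.36 and -0.45) and HMGB2 (0.01 and -0.12) did not pass in either comparison. The DMSO libraries of the other lines stood apart in CDKN1A, which had 308.03 and 318.74 FPKM in E545K in DMSO and 237.4 and 247.35 FPKM in wild type in DMSO, against 40.33 and 45.63 and 45.45 and 60.02 FPKM in the same lines in conditioned medium. The part of these levels in the differences was not tested.

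**Figure D5:**
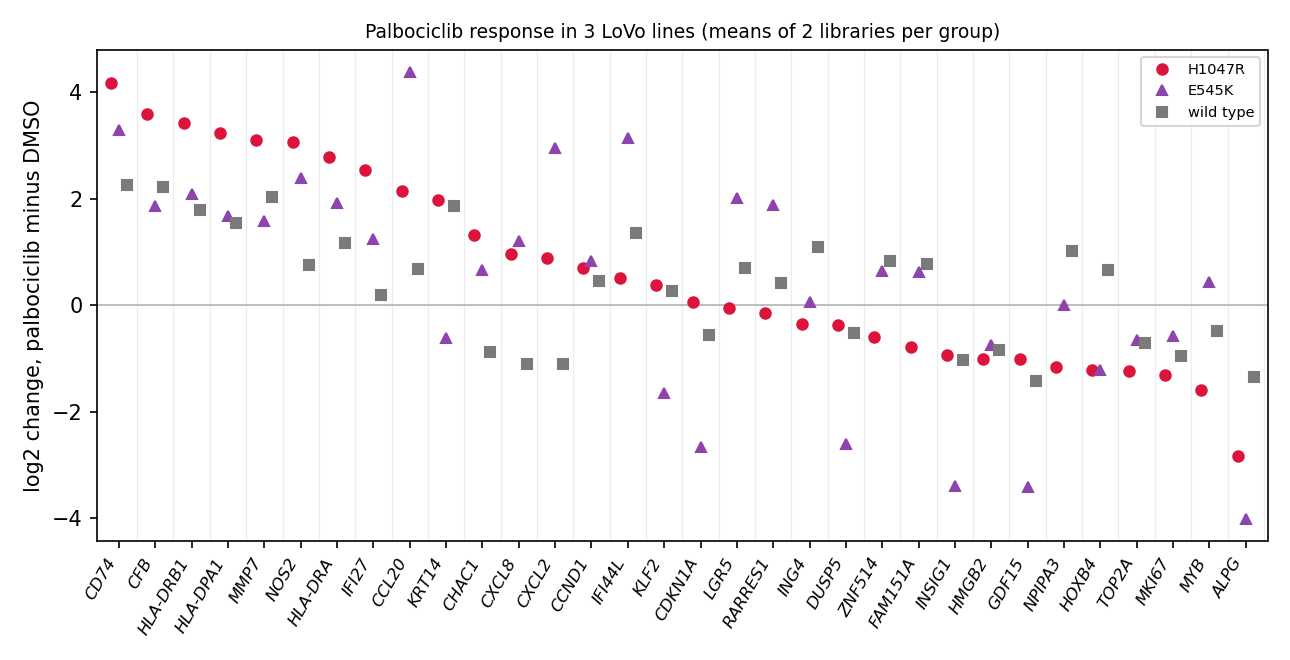
Log2 change of palbociclib minus DMSO, each from means of 2 libraries, for 32 genes in H1047R (circles), E545K (triangles) and wild type (squares), ordered by the H1047R change. CD74 lies at 4.17 in H1047R, 3.29 in E545K and 2.26 in wild type, and CDKN1A at 0.06 in H1047R and -2.67 in E545K.

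Other sets of H1047R libraries give levels for the same genes, with no test. In conditioned medium CD74 had 43.97 and 48.4 FPKM, CFB 2.27 and 2.04 FPKM, MKI67 65.37 and 61.7 FPKM and ALPG 102.04 and 114.85 FPKM, which lay nearer the DMSO than the palbociclib libraries. Other genes that fell in palbociclib were low in conditioned medium too, nearer the palbociclib libraries. Among them CDKN1C had 2.97 and 4.55 FPKM, GDF15 20.25 and 26.16 FPKM and IRS2 13.76 and 14.54 FPKM. In the second table, which was normalized apart and holds no DMSO library, H1047R cells in 0.5 µM palbociclib had CD74 at 59.81 and 53.41 FPKM, HLA-DRA at 19.09 and 16.43 FPKM, CFB at 17.43 and 16.8 FPKM, CEACAM5 at 53.31 and 49.4 FPKM and MKI67 at 10.82 and 11.24 FPKM. HLA-DRA there lay near the DMSO libraries of the first table (17.42 and 16.59 FPKM). So did CIITA, at 1.87 and 1.33 FPKM against 1.26 and 1.55 FPKM in those DMSO libraries. CD74 lay far below the palbociclib libraries of the first table, so the class II levels of those libraries were not reached. The reason was not tested, and the hours of that treatment are not given in the sources used here.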

How the data were processed

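RNA was sequenced after selection of polyadenylated transcripts, per the labels' protocols. The authors deposited FPKM values per gene and library, per the file headers, in a table of 18165 genes and 18 libraries, used here, and a second of 17734 genes and 8 libraries, used for levels only. Per the submitters' processing notes, the tools were RSEM 1.3.1, DESeq2 1.4.5, Bowtie2 2.3.4.3 and HISAT2 2.1.0, on the build GRCh38 (hg38). The role of each is not given in the sources used here. FPKM divides by transcript length and library total, so a few abundant genes can shift all others. Depth is unknown, and no counting interval or floor is given.

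Values were transformed to log2(FPKM + 1) and fitted with limma 3.58.1 in R 4.3.3 (intensity trend, empirical Bayes). The comparison used the 4 H1047R libraries and the differences in response used 8. Genes reaching 1 FPKM in at least 2 libraries were tested, with Benjamini-Hochberg adjustment over all genes tested and a threshold of 0.05. A gene was named when it was among the 20 largest called rises or falls with a mean of at least 5 FPKM in the higher group and no overlap, among up to 4 largest calls of a list, among fixed pathway genes, or among the 6 largest differences per direction and line. Genes with only a locus number for a symbol were left out. The members and lists were chosen with earlier results of these data known. A permutation test of 2 against 2 libraries cannot go below p = 0.333, so none is given. Alternatives were another pseudocount, no filter, other scalings, wider fits, the replicate number as a block and each library left out. Plots used matplotlib 3.10.9 in Python 3.11.15, and transcript lengths came from GENCODE 29. Results for a few genes are not reported here.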

Additional observations from a re-analysis of the deposited data

Results flagged for a closer look

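These results were picked out because the palbociclib response (log2 change, palbociclib minus DMSO) of H1047R differed from that of another line by a limma test of the difference itself, with the values before any shift for the median of all genes. Their causes were not tested.

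Against wild type, the difference of H1047R minus wild type was 2.34 for IFI27, 2.32 for NOS2, 2.19 for CHAC1, 2.06 for CXCL8, 1.98 for CXCL2 and 1.90 for CD74. It was -2.17 for NPIPA3, -1.88 for HOXB4, -1.55 for FAM151A, -1.49 for ALPG, -1.44 for ING4 and -1.43 for ZNF514. Adjusted p ran from 0.00296 for IFI27 and CHAC1 to 0.0493 for ZNF514.

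Against E545K, the difference of H1047R minus E545K was 2.73 for CDKN1A, 2.59 for KRT14, 2.46 for INSIG1, 2.40 for GDF15, 2.23 for DUSP5 and 2.02 for KLF2. It was -2.62 for IFI44L, -2.22 for CCL20, -2.07 for CXCL2, -2.07 for LGR5, -2.03 for RARRES1 and -2.02 for MYB. CXCL2 responded more positively in H1047R than in wild type and more negatively than in E545K.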

How the results depend on the processing

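The counts of genes depended on the processing. No call of a named gene changed sign. Fits on all 18 libraries, with no filter or with the replicate block leave each log2 change as it is, so this is no measure of stability. Of 140 named genes called in H1047R, 35 were called under every alternative and 36 were lost only with no filter on low values. In H1047R, 57 genes were higher and 3 lower with no filter (2963 genes passed at an unadjusted p below 0.05 in the reported fit), 175 and 64 on the TPM scale, 2440 and 2438 with all 18 libraries in the fit, 722 and 597 with these weighted by group, and 563 and 428 after quantile normalization, which moved the share higher from 67.4% to 56.8%. Leaving out each library in turn gave 192 to 1577 higher and 55 to 2206 lower. The length correction, chosen after seeing the data, gave 517 and 315.

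Genes called different from wild type numbered 323, and 94 with no filter, 2830 with all 18 libraries, 975 with group weights, 626 with the length correction and 4 to 4162 with a library left out. From E545K 1675 were called, and 967 with no filter, 1083 on the TPM scale, 4139 with all 18 libraries and 81 to 4540 with a library left out.

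The labels give replicate numbers no shared source, and deviations of replicate 1 in palbociclib and DMSO correlated across genes at -0.58 in H1047R, 0.17 in E545K and 0.16 in wild type, so replicates were treated as unpaired. The replicate block gave 321 higher and 196 lower in H1047R, 43 called against wild type and 961 against E545K. The crossed pairing, added after seeing the data, gave 1944 higher and 2022 lower. The cause of these changes was not tested.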
